A study of Mus musculus with 4 samples.

Results

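The genes described here encode the proteins of the cytosolic ribosome, the particle that makes nearly all proteins of the cell. They were chosen by name: a gene was taken when its GENCODE M21 symbol was that of a large or small subunit ribosomal protein (Rpl or Rps and a number, with an optional ending a, x, l or l1, or Rplp0 to Rplp2, or Rpsa) and its type was protein coding. The rule matched 82 of the 20296 genes of the table, 51 of the large subunit and 31 of the small subunit. Of these, 6 are called paralogs here, genes named after another member with the ending l or l1: Rpl3l, Rpl7l1, Rpl10l, Rpl22l1, Rpl39l and Rps27l. Whether each encodes a protein of the finished ribosome was not examined. All 82 had an adjusted p, so none was lost to the filter on low means.

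RNA was sequenced from EpiLSC and from nESC of the mouse embryonic stem cell lines R1 and E14. The EpiLSC, cells like the epiblast after implantation, were collected on day 3 in N2B27 medium with activin A at 20 ng/ml and bFGF at 12 ng/ml on gelatin. The nESC, naive embryonic stem cells, were held in 2i/LIF. Each state had 2 samples, 1 of R1 and 1 of E14, so the spread within a state includes the difference between the lines, and medium and state cannot be told apart.

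Each ribosome holds about equal numbers of most of its proteins, and their genes are among the most active of any dividing cell. Most ribosomal protein mRNAs begin with a run of pyrimidines at the cap, the terminal oligopyrimidine (TOP) tract, through which mTOR signalling sets their translation. Some ribosomal proteins have paralogs, several of them copies of X-linked genes on autosomes and known for their use in the male germ line, where the X chromosome is silenced during meiosis.

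The data were 1 comparison table, with the mean normalized count over the 4 libraries, the log2 fold change, its standard error (SE) and the p-value of each gene, and no values per sample. Total reads per sample are therefore unknown. Positive log2 fold changes were read as higher in EpiLSC, because the naive markers Zfp42, Klf4 and Esrrb were negative and Fgf5, Otx2 and Dnmt3b positive, 3 of 3 each. Of 4 other pluripotency genes, 1 (Sox2) was lower and 0 were higher at an adjusted p under 0.05. Their log2 fold changes ran from -3.35 to 1.86, and Pou5f1, which both states use, had -0.19 (SE 0.76). Of 11 fibroblast or feeder markers 10 were in the table and 7 tested. Of the 7, Mmp2, Thy1 and Dcn were higher and 0 were lower at an adjusted p under 0.05. The log2 fold changes of the 7 ran from -2.38 to 6.76. Their summed implied level was 480.0 normalized counts in EpiLSC and 169.8 in nESC. Col1a1 had a mean of 6.07, and the part of such cells in the values below was not tested. In bulk samples fewer cells of a type and less RNA per cell cannot be told apart.

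Rpl39l and Rpl10l fell in EpiLSC, and they were the 2 members of 82 that passed the test. Of the others 0 passed it in either direction. A call was an adjusted p under 0.05 in the authors' deposited table, from the Wald test of DESeq2 with Benjamini-Hochberg adjustment. By that rule 6.23% of the 16361 tested genes were lower in EpiLSC and 7.67% higher. Means of at least 1000, which 78 of the 82 members reached, were held by 4949 tested genes, called abundant here, of which 198 were lower and 119 higher. At an unadjusted DESeq2 p under 0.05 the count of members was 3, the third being Rpl3l. At that threshold there were 3558 of the 16361 tested genes and 504 of the 4949 abundant genes.

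Rpl39l (ENSMUSG00000039209, chromosome 16) is the autosomal copy of X-linked Rpl39, whose small basic protein lines the exit tunnel of the large subunit. Its implied level, derived from mean and fold change under equal weights of the libraries, was 30.1 normalized counts in EpiLSC and 890.2 in nESC. The log2 fold change in the authors' deposited table was -4.89 with an SE of 0.82 and a 95% interval of -6.50 to -3.27. The adjusted p of the DESeq2 Wald test there was 1.43e-07. Its parent Rpl39 had 18946 in EpiLSC and 18518 in nESC, a log2 fold change of 0.03 (SE 0.76). The 95% interval of Rpl39, -1.46 to 1.53, did not overlap that of its paralog. Per kilobase of transcript, Rpl39l made up 0.121% of the summed level of both genes in EpiLSC and 3.53% in nESC.

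Rpl10l (ENSMUSG00000060499, chromosome 12) is a single-exon copy of X-linked Rpl10, which encodes a protein of the joining face of the large subunit, added late in its assembly. Its implied level was 126.3 normalized counts in EpiLSC and 2884 in nESC. The authors' deposited table gave it -4.51 on the log2 scale with an SE of 0.63, a 95% interval of -5.75 to -3.28 and an adjusted DESeq2 p of 8.67e-11. Rpl10 had 26229 in EpiLSC and 26417 in nESC, a log2 fold change of -0.01 (SE 0.68, 95% interval -1.34 to 1.32). Again the intervals of paralog and parent did not overlap. Rpl10l made up 0.375% of the level per kilobase of the pair in EpiLSC and 7.86% in nESC. The difference in fold change within each pair, -4.92 for Rpl39l minus Rpl39 and -4.50 for Rpl10l minus Rpl10 on the log2 scale, was not tested, since the table gives no error of a difference between genes.

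The coding sequences are shown because they bear on whether reads of paralog and parent can be told apart. Rpl39l and Rpl39 encode 51 amino acids each, of which 3 differ (94.1% identity), while 23 of 153 coding bases differ. Rpl10l and Rpl10 encode 214 amino acids each with 3 differences (98.6% identity), while 98 of 642 coding bases differ. The coding sequence of Rpl39l and Rpl39 without its stop codon, and the first 150 bases of Rpl10l and Rpl10, read 5′ to 3′ as follows from GENCODE M21 transcripts, with the bases that differ within the pair in capitals.
Rpl39l: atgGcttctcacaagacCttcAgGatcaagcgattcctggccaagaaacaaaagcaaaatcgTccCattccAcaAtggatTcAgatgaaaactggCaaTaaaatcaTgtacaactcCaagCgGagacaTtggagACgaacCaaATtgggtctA
Rpl39: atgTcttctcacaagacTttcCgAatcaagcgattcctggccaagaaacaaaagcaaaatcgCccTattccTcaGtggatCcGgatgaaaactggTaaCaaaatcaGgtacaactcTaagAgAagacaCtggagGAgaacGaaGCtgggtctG
Rpl10l: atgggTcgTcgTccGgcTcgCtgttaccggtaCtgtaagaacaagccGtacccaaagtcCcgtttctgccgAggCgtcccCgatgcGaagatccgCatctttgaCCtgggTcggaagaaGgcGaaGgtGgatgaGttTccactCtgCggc
Rpl10: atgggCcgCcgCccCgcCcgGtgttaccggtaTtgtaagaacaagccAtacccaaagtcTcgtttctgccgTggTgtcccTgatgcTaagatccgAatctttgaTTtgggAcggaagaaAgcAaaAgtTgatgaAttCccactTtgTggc
The longest stretch without a difference was 38 bases in the first pair and 23 in the second. Of the 50-base stretches of the Rpl39l transcript, 0% occurred in a transcript of another gene on either strand. For Rpl10l this was 7.60%, all of it in the gene Gm14460, and 0% of its stretches of 100 bases did. The parents shared more, with 16.5% of 50-base stretches for Rpl39 and 92.1% for Rpl10. Rpl10 shared most with Rpl10-ps3, which had a mean of 3757 normalized counts. Reads of a parent can thus be lost or split, and the paralogs' percentages of the pairs depend on how they were counted. The measure of shared stretches was chosen after the fold changes were seen, and the authors' read length is unknown.

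The other paralogs were not called. Rpl3l, the paralog of Rpl3 known from heart and skeletal muscle, had an implied level of 1.5 normalized counts in EpiLSC and 22.8 in nESC. Its log2 fold change in the authors' deposited table was -3.92 with an SE of 1.51 and an adjusted DESeq2 p of 0.0635, and a level under 3 rests on few reads. Rps27l, a paralog of Rps27 known as a target of p53, had the highest log2 fold change of all members, 0.74 with an SE of 0.67 and an adjusted DESeq2 p of 0.685 in the authors' deposited table. Rps27 had -0.22 (SE 0.67), and Rps27l made up 23.2% of the level per kilobase of the pair in EpiLSC and 13.5% in nESC.

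Rpl22l1, the paralog of Rpl22, had a log2 fold change of -0.38 (SE 1.00), beside -0.18 (SE 0.63) for Rpl22. It held 55.9% of the level per kilobase of the pair in EpiLSC and 59.2% in nESC, but 26.3% in EpiLSC and 29.04% in nESC per kilobase of coding sequence, so which gene of this pair is higher depends on the length used. Rpl7l1 shares 40.7% of its aligned protein sequence with Rpl7. Its log2 fold change was -0.34 (SE 0.63) and its share 3.97% in EpiLSC and 4.27% in nESC, against 9.23% in EpiLSC and 9.88% in nESC by coding length. Rpl36al, which the naming rule leaves out, encodes the same protein as X-linked Rpl36a and had a log2 fold change of -0.14 (SE 0.73), beside -0.37 (SE 0.62) for Rpl36a. It held 26.3% of its pair in EpiLSC and 23.3% in nESC. With the transcripts that were chosen first this was 12.8% in EpiLSC and 11.1% in nESC.

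**Figure D1:**
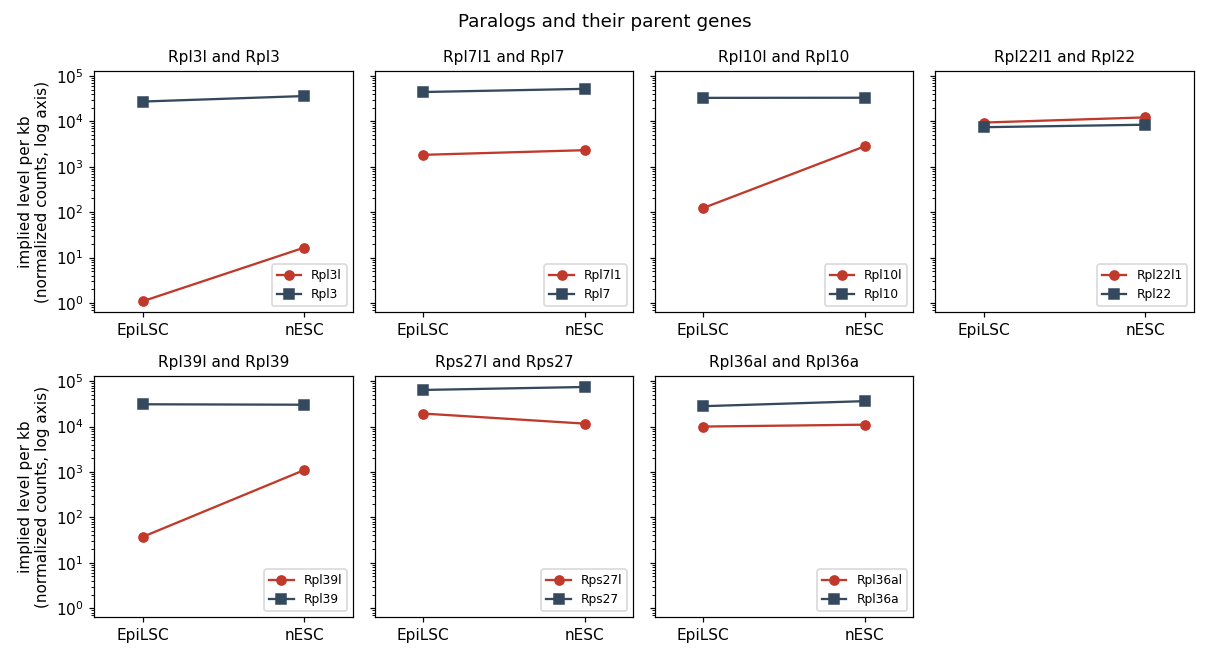
Implied level per kilobase of transcript (normalized counts, log axis) of 7 paralogs (circles) and their parent genes (squares) in EpiLSC and nESC; each point comes from the mean and fold change of the authors' deposited table, with no error of its own. Rpl39l and Rpl10l are lower in EpiLSC by log2 fold changes of -4.89 and -4.51 while the lines of Rpl39 and Rpl10 are flat.

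The 76 members that are not paralogs encode the ribosomal proteins found in most cells, and 0 of them were called in either direction. Without adjustment too, 0 of the DESeq2 p-values in the authors' deposited table were under 0.05, against 504 of 4949 for the abundant genes. The median log2 fold change of the 76 members was -0.23, the quartiles lay at -0.35 and -0.08, and 61 of 76 were below 0. Over all 82 members the median was -0.25 and 66 (80.5%) were below 0. The same median over all tested genes was 0.02 with 49.0% below 0, and over the abundant genes it was 0.00 with 49.6% below 0.

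The members share libraries, so a shift common to all of them counts as 1 observation and has no test here. The SD of the log2 fold change was 0.23 over the 76 genes and 0.84 over all 82 members, paralogs included, against 1.16 over the abundant genes, from which no gene was left out. All 76 had a log2 fold change smaller than 1 in size, as did 84.3% of the abundant genes. The SD of 0.23 is smaller than the SE of any single member, which ran between 0.61 and 2.86 with a median of 0.71. The 95% intervals of 0 of the 76 members stayed inside a 2-fold difference in both directions, and those of 58 stayed inside a 4-fold one. The 0 calls therefore do not show that any single one of these genes changed by less than 2-fold. The smallest change that could have been called was not worked out.

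**Figure D2:**
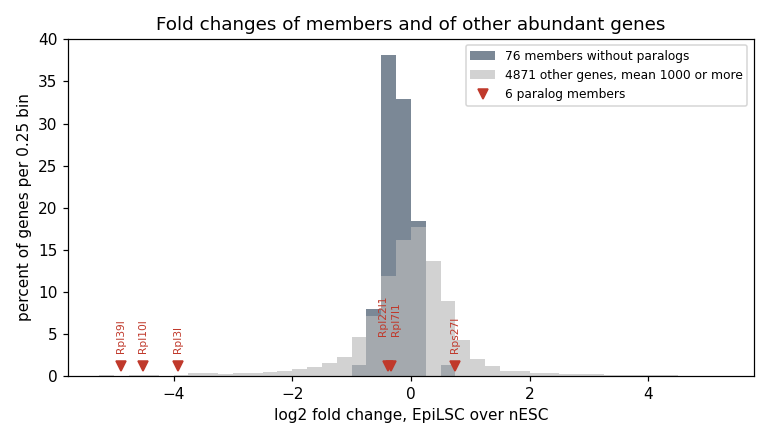
Percent of genes per bin of 0.25 in log2 fold change (EpiLSC over nESC), for the 76 members without paralogs and for the 4871 other abundant genes (mean of at least 1000); triangles mark the 6 paralogs. The members lie between -0.93 and 0.55, with a median of -0.23.

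Together the 82 members made up 5.33% of all summed implied levels in EpiLSC and 6.14% in nESC. The log2 ratio of their sums was -0.24, beside -0.03 for all tested genes. Since these sums carry no error per sample, the difference was not tested.

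Of the large subunit, 46 genes without paralogs had a median of -0.20, and 33 were below 0. Of the small subunit, 30 genes had a median of -0.32, and 28 were below 0. The difference between the subunits was not tested. Rps2, a protein of the mRNA entry side of the small subunit, was the lowest member that is not a paralog, with implied levels of 6220 normalized counts in EpiLSC and 11878 in nESC and a log2 fold change of -0.93 with an SE of 0.82 and an adjusted DESeq2 p of 0.656 in the authors' deposited table. Rpl10a followed with -0.61 (SE 0.66). At the other end were Rpl24 with 0.55 (SE 0.86), Rpl36 with 0.24 (SE 2.86), Rpl41 with 0.16 (SE 1.09) and Rpl15 with 0.11 (SE 0.70). All of these intervals included 0.

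**Figure D3:**
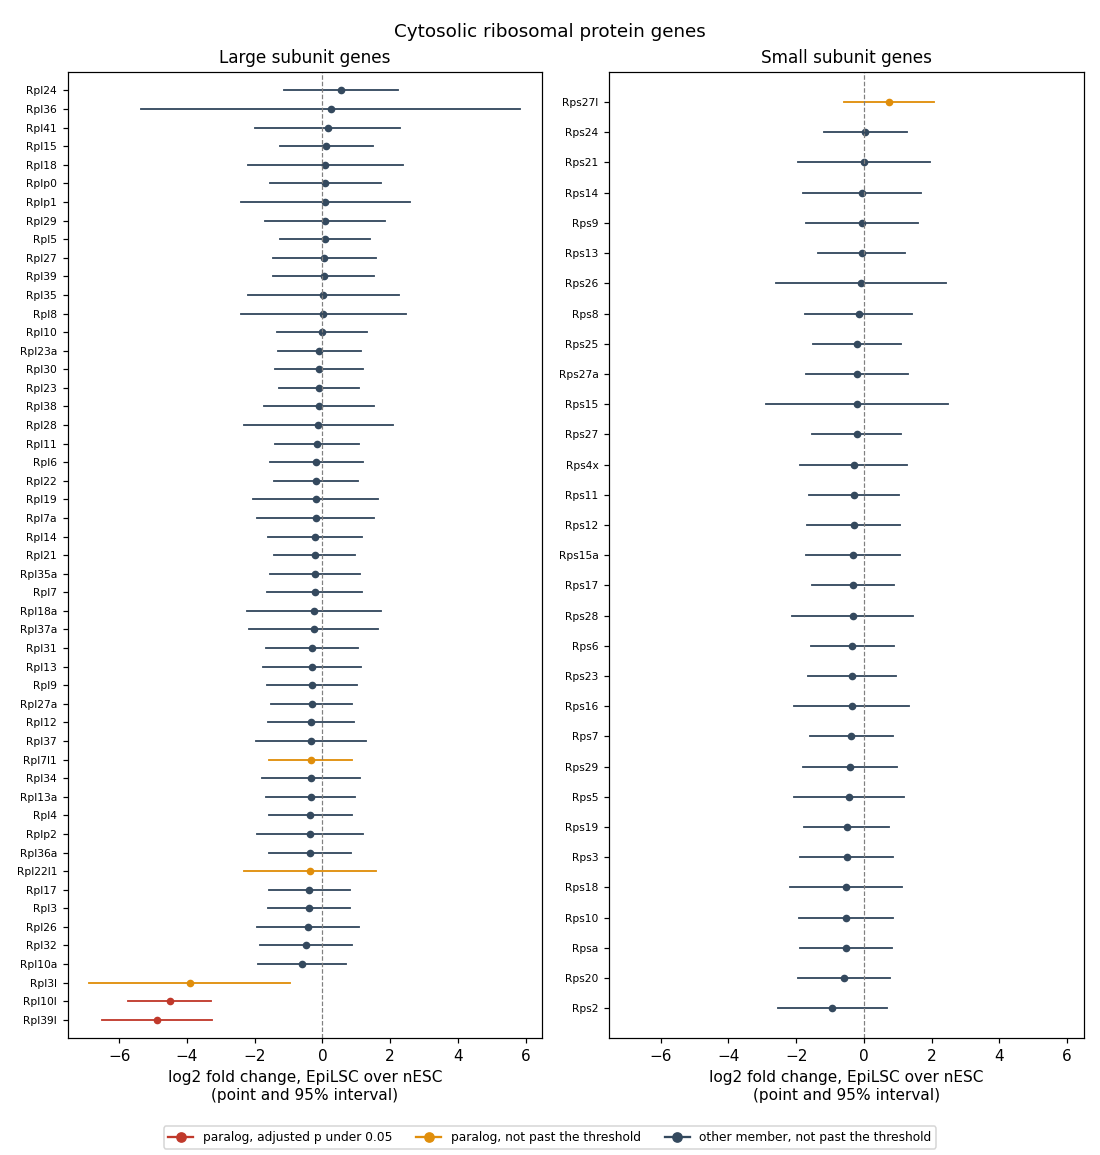
Log2 fold change (EpiLSC over nESC) of the 82 members with its 95% interval, from the authors' deposited table, ordered within each subunit. The intervals of Rpl39l, Rpl10l and Rpl3l lie below 0, and those of the other 79 members include 0.

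The stalk recruits elongation factors; of its proteins Rplp0 had 0.09 (SE 0.84), Rplp1 0.08 (SE 1.27) and Rplp2 -0.37 (SE 0.79). Rpl5 and Rpl11 join the ribosome with its smallest RNA and, when free, bind the p53 inhibitor Mdm2. Rpl5, the most abundant member by mean with 71337 normalized counts, had a log2 fold change of 0.06 (SE 0.68), and Rpl11 had -0.15 (SE 0.63). Rpl4 lines the exit tunnel with Rpl39 and had -0.35 (SE 0.62), with 52646 normalized counts in EpiLSC and 67192 in nESC.

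Rps27a, which is made as a fusion with ubiquitin, had -0.21 (SE 0.77). Rps26 and Rps28, beside the mRNA exit of the small subunit, had -0.09 (SE 1.28) and -0.33 (SE 0.91). Of the 18 members whose human genes are mutated in Diamond-Blackfan anaemia, a failure of red cell production, 0 were called, with a median of -0.22 and a range of -0.52 for Rps10 to 0.11 for Rpl15. Rps19, the gene most often mutated in that disease, had -0.50 (SE 0.64), with implied levels of 7364 normalized counts in EpiLSC and 10409.9 in nESC.

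Of 6 proteins reported to be present on only some ribosomes, 0 were called. Rpl38, which mouse mutants tie to the translation of Hox mRNAs, had -0.10 (SE 0.83), Rps25 -0.20 (SE 0.66) and Rpsa, also known as the laminin receptor, -0.54 (SE 0.69). The 4 X-linked members, Rpl10, Rpl36a, Rpl39 and Rps4x, had a median of -0.15, and Rps4x itself had -0.30 (SE 0.81).

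Levels between genes are compared per kilobase of transcript. The 76 members without paralogs had a mean between 394.2 and 69194 normalized counts per kilobase, with a median of 21987, where the median of all tested genes was 114.9. Of the 100 tested genes with the highest level per kilobase 50 were members. Rps27 was the highest, followed by Rps6, the small subunit protein phosphorylated by S6 kinase, with 55536, Rpl23a with 54625, Rps4x with 51537 and Rpl7 with 48004. The order of neighbours has no error, as the mean has none in the table.

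The lowest were Rpl3l with 8.84, Rpl24 with 394.2, Rpl39l with 571.6, Rpl29 with 734.1 and Rpl10l with 1471 normalized counts per kilobase. Rpl24 and Rpl29 are proteins of most ribosomes, and 81.7% and 66.8% of their 50-base stretches occur in other genes. The highest members shared many too: 98.6% for Rps27, 84.6% for Rps6, 85.7% for Rpl23a, 72.2% for Rps4x and 53.3% for Rpl7. The cause of the low levels was not tested. The 50-base stretches of 44 of the 82 members were shared with other genes by more than 50%, so reads of these members can be lost or split, depending on how the authors' counting treated them. Across the 76 members the level per kilobase and the shared percent had a Spearman correlation of 0.30, and the log2 fold change and the shared percent one of 0.07. For Rps15a, Rps20 and Rpl22 the transcript used is long, 5179, 3706 and 2051 bases, and their level per kilobase is low for that length.

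**Figure D4:**
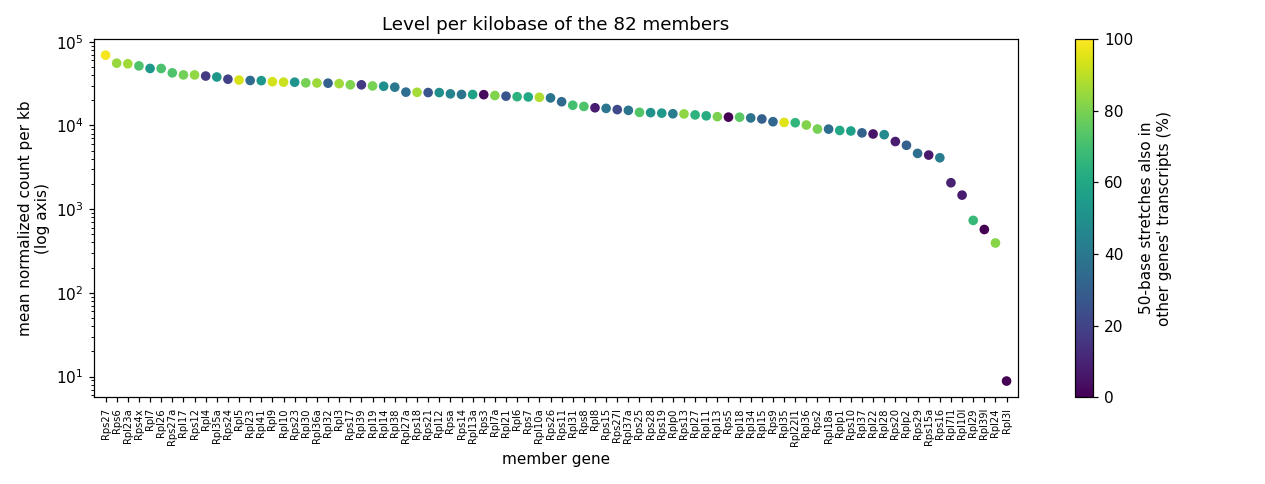
Mean normalized count per kilobase of transcript (log axis) of the 82 members, ordered from high to low; colour gives the percent of 50-base stretches also found in transcripts of other genes. Rps27 is highest at 69194 and Rpl3l lowest at 8.84.

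Copies of ribosomal protein genes outside the rule were read for the same reason. Of 15 genes named as pseudogene copies or close copies 0 were called, with a median of -0.23 on the log2 scale. The ribosomal protein genes Rack1, Fau and Rps3a1, whose names the rule does not match, had log2 fold changes of -0.49 (SE 0.63), -0.25 (SE 1.01) and -0.24 (SE 0.61), and were not called. The set of copies was drawn up after the members' values were seen. Rps2-ps6 had a mean of 11891 normalized counts, beside 9049 for Rps2, of which 79.0% of 50-base stretches occur in other genes. The log2 fold change of Rps2-ps6 was -0.16 (SE 0.82). Both genes were given counts, and how reads that match both were assigned was not tested. Rps27rt, which shares most with Rps27, had -0.54 (SE 0.71) at a mean of 211.2.

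In 10 members the SE was above 1.07, which is 1.5 times the members' median. These were Rpl36, Rpl3l, Rps15, Rps26, Rplp1, Rpl8, Rpl18, Rpl35, Rpl28 and Rpl41. Rpl36 had an SE of 2.86 at a mean of 3878 normalized counts, so its 95% interval ran between -5.37 and 5.85 on the log2 scale, and its pseudogene copy Rpl36-ps3 had an SE of 2.89. Such a value says that the 4 libraries differed widely in this gene, but not which of them.

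High SEs were found more often at high GC content of the transcript, among the members and among other abundant genes. Over the 76 members without paralogs the Spearman correlation of SE and GC percent was 0.49, and over 4866 other abundant genes with a GC value it was -0.09. Of 12 members with a GC content of 55 to 60 percent, 6 had an SE above 1.07, against 29 of 376 other abundant genes (7.71%). At 60 percent and above it was 1 of 2 members and 26 of 51 others. At 50 to 55 percent it was 1 of 36 members and 3 of 1075 others, and below 50 percent 1 of 26 members and 8 of 3364 others. The comparison was made after the values were seen, genes of 1 table share their libraries, and a cause was not tested. Among the 76 members the SE also went with the mean level, with a Spearman correlation of -0.60, larger in size than that with GC percent. Over the other abundant genes it was -0.02. With transcript length the SE had a correlation of -0.30 among the members and -0.06 among the others. These features were not separated.

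**Figure D5:**
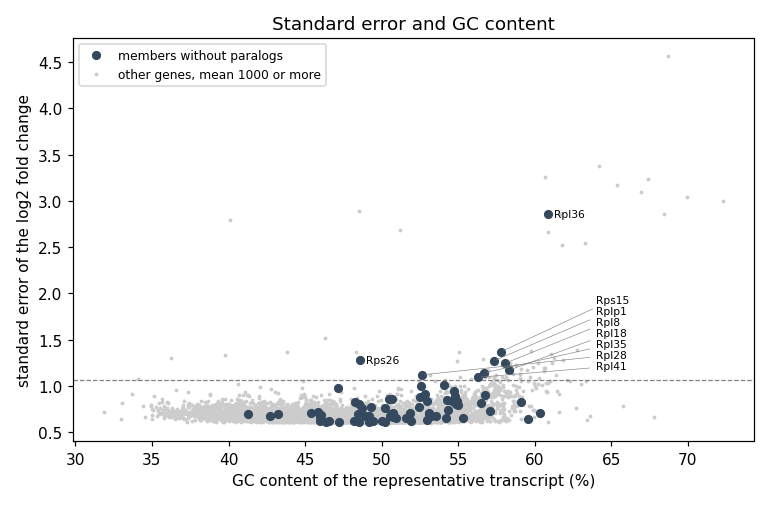
Standard error of the log2 fold change against GC content (percent) of the representative transcript, for the 76 members without paralogs and for the other abundant genes; the dashed line marks 1.07. Rpl36 stands at 60.8 percent GC and an SE of 2.86.

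Other genes of ribosome production and translation showed no call either. Of 63 tested genes of ribosome assembly, which process ribosomal RNA in the nucleolus, 0 were higher and 0 lower, with a median of 0.17. Of 18 other genes with TOP tracts, mostly elongation and initiation factors, 0 passed, with a median of 0.08. The elongation factor gene Eef1a1, the highest mean of the table, had -0.50 (SE 0.61). Of 32 initiation factors 0 passed in either direction in the authors' deposited table. For 3 the DESeq2 p was under 0.05 before adjustment, as it was for 3558 of all 16361 tested genes. Eif4g3 had 1.92 (SE 0.76), Eif1ax 1.5 (SE 0.73) and Eif4e2 -1.39 (SE 0.64).

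Of 12 genes of mTOR signalling and TOP control 0 passed, with a median of -0.06 and 1 unadjusted p under 0.05. That gene was Eef2k, the kinase that restrains elongation, with implied levels of 443.9 normalized counts in EpiLSC and 1416 in nESC and a log2 fold change of -1.67 with an SE of 0.67 and an adjusted DESeq2 p of 0.0794 in the authors' deposited table. Of the 4 genes of the p53 response to free ribosomal proteins 0 passed, with a median of -1.06 and 1 unadjusted DESeq2 p under 0.05, that of Cdkn1a. Mdm2 had 0.12 (SE 0.66), Trp53 -0.99 (SE 0.81), Mdm4 -1.14 (SE 0.65) and Cdkn1a -1.51 (SE 0.65). The 77 tested genes of the mitochondrial ribosome had a median of -0.03 and 0 calls, and the 5 chaperones that escort single ribosomal proteins a median of 0.12 and 0 calls.

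Start sites are shown because the TOP tract is a known feature of ribosomal protein mRNAs. RefSeq windows, from 250 bases before to 50 after the start, were matched to 62 of the 82 members. A run of at least 8 pyrimidines on the transcript's strand, within 50 bases of the start, was found in 48 of 56 members without paralogs (85.7%), against 39.3% of all 27025 genes with a window (35.7% of all 32851 windows) and 37.0% of the other abundant genes with a window. It was found in 4 of 6 paralogs. The stretches around the start of Rps27, Rps6, Rpl26 and Rps12, 4 of the members with the highest level per kilobase among those with such a run, read as follows (RefSeq, GRCm38.p6, the run nearest the start in capitals).
Rps27, chr3:90213629-90213658, strand -: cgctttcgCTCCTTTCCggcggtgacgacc
Rps6, chr4:86857347-86857376, strand -: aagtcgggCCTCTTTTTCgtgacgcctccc
Rpl26, chr11:68901579-68901608, strand +: gcgtgtagTTCTCTTTCCTTTTgcggccat
Rps12, chr10:23787180-23787209, strand -: accgccggCCTTTTCCCCTgccgccgccga
Counted from 0 at the first base of the RefSeq transcript, these runs began at -2 for Rps27, -1 for Rps6, 21 for Rpl26 and 8 for Rps12. A run some way from the first base, as in Rpl26 and Rps12, is not shown to be a TOP tract, which lies at the cap. RefSeq starts can lie some bases off the site used in these cells.

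The promoters of the 2 members that fell follow, as the 250 bases before the RefSeq start (GRCm38.p6). Matches to CCGGAAG (bound by Ets factors such as Gabpa), AAGATGG (Yy1), GGGCGG (Sp1), AAGGTCA (a site of Esrrb and related receptors) or TATAAA (the TATA box), on either strand, are in capitals. No match of 1 motif overlapped that of another in these windows.
Rpl39l, chr16:10169978-10170227, strand +: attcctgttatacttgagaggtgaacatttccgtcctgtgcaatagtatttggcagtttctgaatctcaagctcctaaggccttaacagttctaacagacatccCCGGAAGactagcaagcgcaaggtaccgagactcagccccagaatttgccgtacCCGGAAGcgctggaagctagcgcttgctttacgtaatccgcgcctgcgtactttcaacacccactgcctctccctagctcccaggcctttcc
Rpl10l, chr12:66284402-66284651, strand -: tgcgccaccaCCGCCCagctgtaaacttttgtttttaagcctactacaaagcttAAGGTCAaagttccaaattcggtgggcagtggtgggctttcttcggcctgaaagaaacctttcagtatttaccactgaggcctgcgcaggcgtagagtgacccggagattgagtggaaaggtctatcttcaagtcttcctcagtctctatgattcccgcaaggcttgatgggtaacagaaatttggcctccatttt
Rpl39l held CCGGAAG at 2 places and none of the others. Rpl10l held 1 GGGCGG and 1 AAGGTCA. In the same window Rpl39 held 1 TATAAA and Rpl10 1 GGGCGG. The motifs CCGGAAG and AAGGTCA were picked after these sequences had been read, so their matches there illustrate and test nothing.

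CCGGAAG occurred in 17 of 56 members without paralogs (30.4%), in 19.5% of the other abundant genes and in 7.83% of all genes with a window. AAGGTCA occurred in 3 of 56 members without paralogs, in 118 of 3869 other abundant genes and in 4.70% of all genes. Of the 6 paralogs, 1 (Rpl39l) held the first of these motifs and 2 (Rpl10l and Rpl3l) held the second. The promoters of Rpl39l and Rpl10l were read before the motifs were picked, so these paralog counts test nothing. GGGCGG was found in 28 of 56 members without paralogs and 4 of 6 paralogs, against 69.4% of the other abundant genes and 35.4% of all genes. AAGATGG was found in 5 of 56 members without paralogs and 0 of 6 paralogs, against 205 of 3869 other abundant genes and 5.18% of all genes. TATAAA was found in 3 of 56 members without paralogs (5.36%) and 1 of 6 paralogs. Its share was 6.95% in the other abundant genes, close to that of the members, and 14.3% in all genes. A match is a description of the letters and not of binding.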

How the data were processed

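RNA of 2 EpiLSC and 2 nESC samples was sequenced after depletion of ribosomal RNA in strand-specific libraries, per the labels' protocols. The submitters' processing notes name TopHat2, HTSeq, DESeq2 1.8.2 and the build mm9. Not given in the sources used here are annotation, strand setting, read length, any shrinkage of fold changes and the terms of the authors' model. The deposited table holds, per the file headers, the mean normalized count (a signal that the authors made by averaging counts divided by size factors), the log2 fold change by the authors, its deposited standard error and Wald score, and the deposited p-value and adjusted p. There were no values per sample, so no gene was tested anew.

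Implied levels are 2m/(1 + 2 to the power L) for nESC, with m the mean and L the log2 fold change, and 2m minus that value for EpiLSC, with equal weight for each library. Intervals of 95% use the normal distribution. A gene was called at an adjusted p under 0.05. The recomputed adjustment was tested on simulated data. Names, types, transcripts and GC content come from GENCODE M21 (GRCm38), which named 20167 of 20296 gene IDs; no gene coordinates are given, as the builds differ. The transcript of a gene was chosen by APPRIS label, RefSeq match, coding length, support level and length, a rule changed after lengths and levels under a simpler rule had been seen.

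Members and gene lists were chosen with earlier results of these data known. Named genes are called members, paralogs, the 5 highest and 5 lowest in fold change and in level per kilobase, members with an SE above 1.5 times the median, role lists, and those of smallest p in other lists. The measure of shared stretches, the comparison of SE with GC content, the copies outside the rule, Rpl4 beside Rpl39, Rps10, Rps19, Rps2-ps6, Rps27rt and the motifs were chosen after values or sequences were seen. Python 3.11.15, pandas 2.3.3, numpy 2.4.6, scipy 1.17.1, Biopython 1.88 and matplotlib 3.10.9 were used. A withheld item is not reported here.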

Additional observations from a re-analysis of the deposited data

How the results depend on the processing

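The counts of called members, of each subunit, of paralogs and of the comparison lists stayed within 1.5 times their value with no filter on low means, with only genes of a mean of 100 or more, in a test against a 2-fold change, and after recentring on the median of all tested genes or of those with a mean of 1000 or more. Rpl39l and Rpl10l kept their calls in all of these, with adjusted p between 9.56e-08 and 0.00011 for Rpl39l and between 5.68e-11 and 2.05e-06 for Rpl10l (Benjamini-Hochberg, from the deposited DESeq2 values). Rpl3l missed the threshold in each setting that tested it, between 0.0612 and 0.428; its mean leaves it out of the one with means of 100 or more. The members' median log2 fold change of -0.25 became -0.27 after recentring on all tested genes and -0.23 without paralogs. A mean over all 82 members, paralogs included, weighted by the inverse squared SE gave -0.37. Unlike a median, a mean moves with the size of extreme values such as those of Rpl39l and Rpl10l. The weighted mean without the paralogs is not given here. A move of over 0.1 was counted as a shift, and the cause was not tested.

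By the transcript rule tried first, chosen as an alternative after seeing the data, the Spearman correlation of SE and GC percent was 0.50, and 5 of 15 members of 55 to 60 percent GC had a high SE. By coding length, the median level per kilobase of members was 37729.

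No paired analysis was possible because the table holds no values per sample. For the same reason leaving out each replicate, a fit with the line as a block and edgeR against DESeq2 were not run. Whether 1 line carries the fall of Rpl39l or Rpl10l was not analysed here. At the SEs of this table, which include the difference between the lines, a change below 2-fold in a single member was not detectable.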
